A study of Mus musculus with 23 samples.

Results

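The genes described here are 8 genes of cholesterol synthesis and its control, *Hmgcs1*, *Idi1*, *Fdps*, *Sqle*, *Cyp51*, *Dhcr7*, *Insig1* and *Srebf2*, in the mouse pancreas before and after injury with caerulein. They were taken by symbol, and each symbol matched 1 of the 18512 rows in every count file. All 8 had enough counts to be tested. They are genes of synthesis and its control, and none of the 8 codes for a receptor that takes up cholesterol.

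Cells make cholesterol from acetyl-CoA through mevalonate, isoprenoid diphosphates, squalene and lanosterol. The pathway is controlled by its own product. When sterols in the membrane of the endoplasmic reticulum fall, the precursor of SREBP-2, the product of *Srebf2*, is carried by SCAP to the Golgi and cut, and the released part enters the nucleus and raises transcription of the synthesis enzymes. When sterols are plentiful, INSIG proteins hold the complex of SCAP and the precursor in the endoplasmic reticulum. *Insig1* is itself a target of SREBPs, and its protein thus limits the pathway that raises it. The acinar cells that fill most of the exocrine pancreas hold large stores of endoplasmic reticulum and secretory granules, membranes that need sterol.

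RNA-seq was performed on total RNA of C57BL/6 mice of both sexes, 6 to 8 weeks of age, taken from the pancreatic head. Baseline (non-injured) mice numbered 8, with 4 females and 4 males, and no injection of vehicle is described for them in the sources used here. The post-injury mice had received caerulein, a peptide that overstimulates acinar cells, at 50 µg/kg in 8 hourly intraperitoneal injections on each of 2 consecutive days. Pancreas was collected 7 days after (8 mice, 4 females and 4 males) or 14 days after (7 mice, 3 females and 4 males), counted from the day after the last injection. Each mouse gave 1 library of whole tissue with all of its cell types, and each mouse was sampled at a single time point.

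Total counts ranged from 7059890 to 9567446 per mouse. The 20 most abundant genes took 66.4% to 71.2% of the counts in baseline mice, 55.3% to 62.8% in day 7 mice and 63.9% to 66.2% in day 14 mice. Acinar markers were the most abundant of the marker lists in every group, as the tissue label says: the summed level of the 10 genes was 377011 to 541757 at baseline and 223731 to 338268 at day 7, in CPM (a gene's count relative to its library's total, with totals scaled by TMM factors). Markers of intestinal epithelium summed to at most 2.33 CPM at baseline and day 7, and reached 31.4 CPM in 1 mouse at day 14. That sum rests on 1 gene of the list, *Apoa1*, which reached 29.6 CPM, and each of the others stayed at or below 1.77 CPM. The library that stood apart was mouse 10, a day 7 female, with the lowest share in the 20 most abundant genes (55.3%) and the highest TMM scaling factor (1.397).

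The sterol regulatory element, the short sequence that SREBPs bind, was looked for because it is the known link between *Srebf2* and the enzymes. RefSeq promoter windows (GRCm38.p6, 250 bases before to 50 bases after a transcription start) were found for 6 of the 8 genes, in 8 windows, of which *Dhcr7* had 3. The letters TCACNCCAC were searched on both strands. They occurred in 1 of the 6 genes, *Hmgcs1*, as TCACCCCAC on the strand of the gene, with the first letter 137 bases before the start. Of all 32851 windows in the table, 1.24% held the letters. Only these exact letters were counted and variants were not searched, so a window without them cannot be said to lack the element. The window of *Hmgcs1*, chr13:119690101-119690400 on the plus strand, is printed 5′ to 3′ with the match in capitals.
Hmgcs1: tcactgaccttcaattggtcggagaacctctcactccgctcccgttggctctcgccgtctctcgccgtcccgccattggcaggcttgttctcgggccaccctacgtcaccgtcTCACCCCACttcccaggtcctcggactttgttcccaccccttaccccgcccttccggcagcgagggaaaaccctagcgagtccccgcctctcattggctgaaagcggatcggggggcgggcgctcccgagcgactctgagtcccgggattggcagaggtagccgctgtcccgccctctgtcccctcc

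Factors that bind the CCAAT box and the GC box act beside SREBPs at such promoters. The letters CCAAT, on either strand, occurred in windows of all 6 genes, and in 6 of the 8 windows (37.4% of all windows). GGGCGG also occurred in windows of all 6 genes, and in 7 of the 8 windows (35.7% of all windows). In the window of *Hmgcs1* CCAAT occurred 4 times and GGGCGG 3 times. The E-box CACGTG occurred in *Insig1* and in 1 window of *Dhcr7* (7.15% of all windows). None of these letters overlap those of the sterol element. A match describes letters in a window, and binding was not measured.

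The 8 genes differed widely in level. Per kilobase of exon (GENCODE vM21), *Insig1* stood far above the rest at 32.7 ± 5.11 CPM per kb (mean ± SD, n = 23 mice), followed by *Hmgcs1* at 4.37 ± 0.652. *Fdps* followed at 2.99 ± 0.630 CPM per kb and *Cyp51* at 2.30 ± 0.524. *Srebf2* was at 1.90 ± 0.331 and *Sqle* at 1.75 ± 0.333 CPM per kb. From *Fdps* down to *Sqle*, neighbours in this order were not apart beyond their spread. *Dhcr7* was at 1.13 ± 0.206 CPM per kb. *Idi1* was lowest at 0.567 ± 0.210 CPM per kb, and its counts of 5 to 45 per mouse make it the least precise of the 8. *Insig1* had 555 to 1418 counts per mouse.

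No gene of the 8 was a differentially expressed gene (DEG) at day 7 or day 14. A DEG has a fold change of at least 1.5 and an adjusted p of at most 0.05 in edgeR's quasi-likelihood test. At day 7, 0 of 8 were DEGs, where 5.13% of the 12195 genes tested were, and 0 of 8 passed the adjusted p alone, where 18.6% of all genes did. At day 14, 0 of 8 were DEGs (0.787% of all genes) and 0 of 8 passed the adjusted p alone (1.57%). Against an unadjusted p of 0.05, edgeR gave 0 of 8 at day 7 (32.2% of all genes) and 2 of 8 at day 14 (13.3%), which were *Idi1* and *Dhcr7*. DESeq2 also called 0 of 8 at both times. The values of baseline and post-injury mice overlapped for all 8 genes, whereas 2.75% of all genes had groups that did not overlap at day 7 and 0.664% at day 14. In whole tissue, a change in the number of cells that express a gene and a change in its RNA per cell cannot be told apart.

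**Figure D1:**
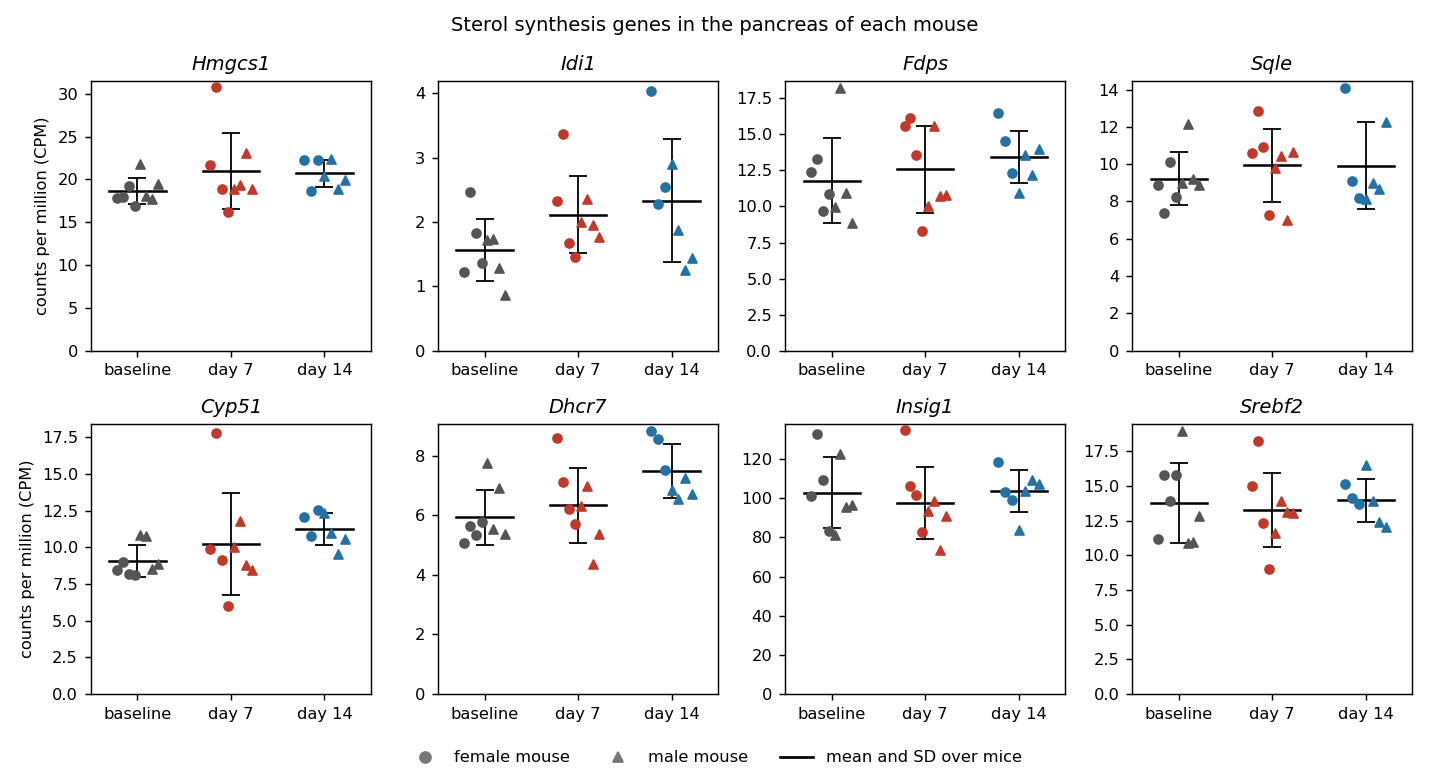
Level of each of the 8 genes in CPM (vertical axis from 0) at baseline (8 mice), day 7 (8 mice) and day 14 (7 mice). Circles are females, triangles are males, and bars show the mean and SD over mice; in every panel the time points overlap.

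The early step of the pathway is made by *Hmgcs1* (ENSMUSG00000093930.2, chr13:119690379-119708260, plus strand), which codes for the cytosolic HMG-CoA synthase. It ranged from 16.9 to 21.8 CPM at baseline (median 17.98), from 16.2 to 30.7 at day 7 (median 19.1) and from 18.7 to 22.4 at day 14 (median 20.4). Of the day 14 mice, 3 of 7 lay above every baseline mouse, and 2 of 8 did at day 7. The log2 fold change was 0.18 (SE 0.097, adjusted p 0.215) at day 7 and 0.15 (SE 0.10, adjusted p 0.555) at day 14. Both intervals leave out a 1.5-fold change, with 95% upper limits of 1.30-fold and 1.29-fold. The highest value of the 23 mice, 30.7 CPM, was that of mouse 10, and without it the day 7 log2 fold change of *Hmgcs1* was 0.067.

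*Idi1* (ENSMUSG00000058258.14, chr13:8885501-8892451, plus strand) and *Fdps* (ENSMUSG00000059743.12, chr3:89093588-89101959, minus strand) act on the isoprenoid diphosphates: isopentenyl diphosphate isomerase converts the 5-carbon unit, and farnesyl diphosphate synthase joins these units. *Idi1* ranged from 0.869 to 2.46 CPM at baseline (median 1.54), from 1.45 to 3.37 at day 7 (median 1.98) and from 1.25 to 4.03 at day 14 (median 2.28). The groups overlapped, and 3 of 7 day 14 mice lay above every baseline mouse. *Idi1* had the largest estimates of the 8, a log2 fold change of 0.45 (SE 0.23, adjusted p 0.176) at day 7 and 0.58 (SE 0.24, adjusted p 0.254) at day 14. The day 14 interval ran from 1.07-fold to 2.10-fold, on both sides of 1.5-fold, with an unadjusted p of 0.0199.

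*Fdps* ranged from 8.87 to 18.2 CPM at baseline (median 10.9), from 8.30 to 16.2 at day 7 (median 12.2) and from 10.9 to 16.5 at day 14 (median 13.6). No day 14 mouse lay above every baseline mouse, since baseline mouse 6 had the highest value of all, 18.2 CPM. The log2 fold changes were 0.10 (SE 0.14, adjusted p 0.651) at day 7 and 0.20 (SE 0.15, adjusted p 0.621) at day 14. Without mouse 6 they were 0.23 and 0.33, and without mouse 14 the day 7 value of *Fdps* was 0.035. Of the exon bases of *Fdps*, 26.7% are shared on the same strand with *Gm43738*, a symbol with no row in the count files, and how reads in the shared bases were counted is not given in the sources used here.

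*Sqle* (ENSMUSG00000022351.14, chr15:59315077-59331192, plus strand) codes for squalene epoxidase, the gate to the sterol rings, and *Cyp51* (ENSMUSG00000001467.5, chr5:4081145-4104746, minus strand) for the demethylase of lanosterol. *Sqle* ranged from 7.38 to 12.1 CPM at baseline (median 8.94), from 6.99 to 12.9 at day 7 (median 10.5) and from 8.16 to 14.1 at day 14 (median 9.01). Its log2 fold changes were 0.11 (SE 0.13, adjusted p 0.592) at day 7 and 0.11 (SE 0.14, adjusted p 0.817) at day 14. Without mouse 10 the day 7 value of *Sqle* was 0.047, and without mouse 17 the day 14 value was -0.0031. The range was wide in all 3 groups and the medians lay within the range of every other group.

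*Cyp51* ranged from 8.14 to 10.8 CPM at baseline (median 8.71), from 6.02 to 17.8 at day 7 (median 9.52) and from 9.53 to 12.5 at day 14 (median 11). At day 14, 4 of 7 mice lay above every baseline mouse, more than for any other of the 8 genes. The log2 fold change was 0.18 (SE 0.15, adjusted p 0.406) at day 7 and 0.31 (SE 0.15, adjusted p 0.377) at day 14, with a day 14 interval from 0.9996-fold to 1.54-fold. The spread between mice was largest at day 7, with an SD of 3.47 CPM against 1.09 at baseline and 1.10 at day 14. Mouse 10 held the highest of the 23 values and mouse 12, also a day 7 female, the lowest. The day 7 log2 fold change of *Cyp51* was 0.0049 without mouse 10 and 0.26 without mouse 12. *Akap9* on the opposite strand shares 3.76% of the exon bases of *Cyp51*, as *Gm48342* does 12.1% of those of *Hmgcs1* and *Gm48574* 9.22% of those of *Idi1*, and whether the counting used strand is not given.

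The last step to cholesterol in one of the routes is the reduction by 7-dehydrocholesterol reductase, the product of *Dhcr7* (ENSMUSG00000058454.15, chr7:143823145-143848410, plus strand). It ranged from 5.06 to 7.75 CPM at baseline (median 5.59), from 4.38 to 8.60 at day 7 (median 6.27) and from 6.55 to 8.84 at day 14 (median 7.27). At day 14, 2 of 7 mice lay above every baseline mouse, and all 7 lay above the baseline median. The log2 fold change was 0.088 (SE 0.12, adjusted p 0.652) at day 7, and ran from 0.016 without mouse 9 to 0.17 without mouse 5. At day 14 it was 0.33 (SE 0.12), from 1.05-fold to 1.503-fold, with an unadjusted p of 0.0126 and an adjusted p of 0.205. Between day 14 and day 7 *Dhcr7* had the largest estimate of the 8, a log2 fold change of 0.24 (SE 0.12, adjusted p 0.360).

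The genes of the control system had the estimates nearest 0. *Insig1* (ENSMUSG00000045294.11, chr5:28071363-28078662, plus strand), the sterol-sensing anchor, ranged from 81.4 to 133 CPM at baseline (median 98.9), from 73.5 to 135 at day 7 (median 96.1) and from 83.7 to 119 at day 14 (median 104). The log2 fold change was -0.076 (SE 0.10, adjusted p 0.646) at day 7 and 0.023 (SE 0.11, adjusted p 0.968) at day 14. *Srebf2* (ENSMUSG00000022463.8, chr15:82147181-82205379, plus strand), which codes for the transcription factor precursor, ranged from 10.9 to 18.96 CPM at baseline (median 13.4), from 9.03 to 18.3 at day 7 (median 13.1) and from 12.0 to 16.5 at day 14 (median 13.9). Its log2 fold changes were -0.057 (SE 0.12, adjusted p 0.783) and 0.015 (SE 0.13, adjusted p 0.986). The day 7 estimates of both genes turned positive under total count scaling, at 0.39 for *Insig1* and 0.40 for *Srebf2*, below the median of all genes there (0.47). The 95% intervals of both genes, at both times, lay between 0.808-fold and 1.21-fold, so changes of 1.5-fold were outside them. SREBP-2 is controlled by cleavage, which RNA counts do not measure.

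**Figure D2:**
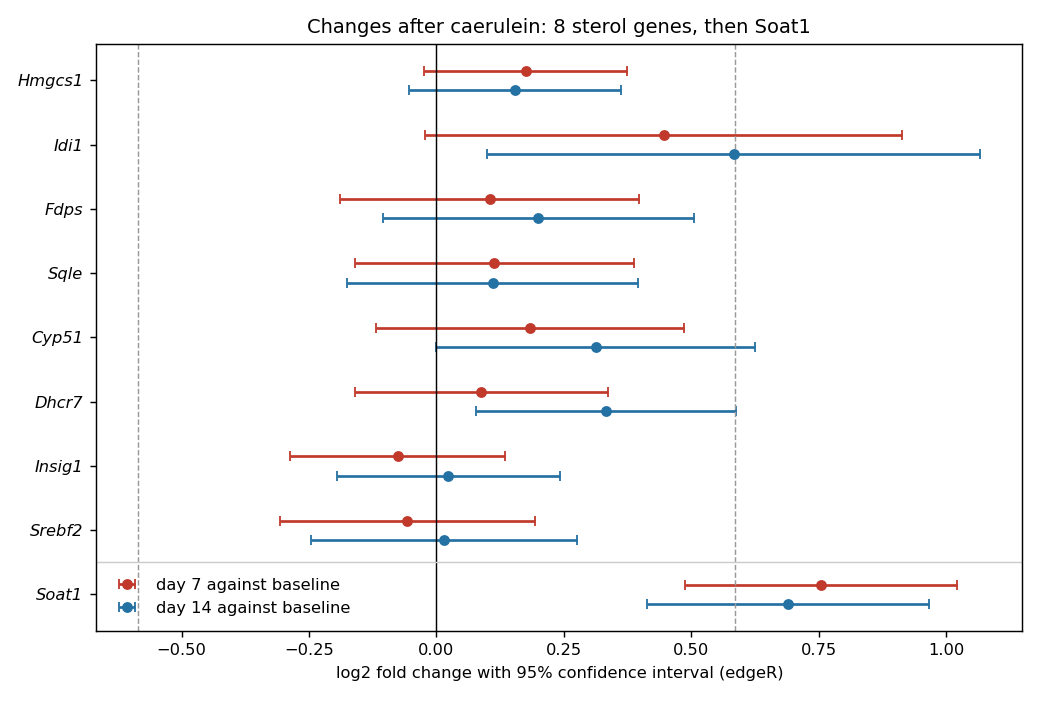
Log2 fold change of the 8 genes, and of *Soat1*, at day 7 (red) and day 14 (blue) against baseline, with 95% confidence intervals from edgeR; dashed lines mark a 1.5-fold change in either direction. The estimates of all 8 genes lie short of the dashed lines, that of *Idi1* at day 14 (0.58) just short, and among the genes drawn only *Soat1* lies past them, at 0.75 and 0.69.

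The median log2 fold change of the 8 genes was 0.11 at day 7, against 0.022 for all genes tested, and 0.18 at day 14, against 0.0062 for all genes. At day 7, 6 of 8 estimates were positive, and at day 14 all 8 were. Of all 12195 genes tested, 6547 were positive at day 7 and 6290 at day 14. Leaving out mouse 1, 4, 5, 6, 7, 17, 21 or 23 gave 7 of 8 positive at day 14. Without mouse 10 the day 7 median was 0.048, with 6 of 8 positive. With the share of the 20 most abundant genes as a covariate, 1 of 8 was positive at day 7 (median -0.37) and 5 of 8 at day 14 (median 0.025), and 0 of 8 passed. Both comparisons use the same 8 baseline mice, so they are not independent. From day 7 to day 14, 0 of 8 genes were DEGs or passed the adjusted p alone in edgeR (0.377% and 1.29% of all genes), 0 of 8 passed an unadjusted p of 0.05 (14.1%), and DESeq2 gave 0 of 8. The median log2 fold change from day 7 to day 14 was 0.097, against -0.015 for all genes.

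These counts rest on TMM scaling. The share of the 20 most abundant genes was 69.4% ± 1.48 at baseline (SD, n = 8) and 60.3% ± 2.43 at day 7 (n = 8). Under scaling to total counts, with no correction for that share, the median of all 12195 genes at day 7 became 0.47, 30.3% of all genes were DEGs, and 3 of the 8 genes were, with log2 fold changes of 0.91 for *Idi1*, 0.66 for *Cyp51* and 0.64 for *Hmgcs1*. Relative to the median of all genes, the median of the 8 then lay 0.097 higher, against 0.086 with TMM scaling. By the adjusted p alone, 8 of 8 passed under that scaling at day 7 and 5 of 8 at day 14. At day 14 total count scaling made 1 of the 8 a DEG, *Idi1* at 0.80, where the median of all genes was 0.22.

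Around the 8 genes, 76 further genes of sterol and fatty acid metabolism were listed by role, and 70 of them had enough counts to be tested. At day 7, 3 rose as DEGs and 0 fell (3.82% and 1.31% of all genes), and 6 rose and 5 fell by the adjusted p alone (8.86% and 9.70% of all genes). At day 14, 1 rose and 0 fell as DEGs (0.697% and 0.0902% of all genes) and by the adjusted p alone (1.05% and 0.525%). With the share of the 20 most abundant genes as a covariate, all 11 day 7 calls by the adjusted p alone were lost. That at day 14 was lost too. The share did not overlap between baseline and day 7 or between baseline and day 14, so this fit separates it poorly from the time point. The median log2 fold change of the 70 was 0.014 at day 7 and -0.038 at day 14.

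The other enzymes of synthesis mostly did not pass. Of 14, 1 passed the adjusted p at day 7 and 0 at day 14, with medians of -0.019 and 0.081. The gene that passed was *Msmo1*, which codes for the methylsterol monooxygenase that acts after CYP51. Its median was 7.28 CPM at baseline and 9.08 CPM at day 7, and it rose with a log2 fold change of 0.34 (SE 0.10, adjusted p 0.0216), under the 1.5-fold limit. The adjusted p of *Msmo1* became 0.0629 without mouse 10 and 0.0503 without mouse 14.

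Of 9 genes that sense sterol or process SREBPs, 1 rose and 2 fell at day 7 by the adjusted p, and 0 passed at day 14. The genes that fell were *Scap*, which codes for the escort of SREBP precursors, with a log2 fold change of -0.43 (SE 0.074, adjusted p 0.00019), and *Srebf1*, which codes for SREBP-1 and acts mainly on fatty acid synthesis, at -0.41 (SE 0.10, adjusted p 0.0059). *Scap* ranged from 40.9 to 55.6 CPM at baseline and from 29.1 to 37.7 at day 7, with no overlap. *Rnf139*, which codes for a ubiquitin ligase of the endoplasmic reticulum, rose by 0.21 (SE 0.067, adjusted p 0.0245). Each of these changes was under 1.5-fold. With total count scaling the estimates of *Scap* and *Srebf1* became 0.014 and 0.045, which is below the median of all genes under that scaling (0.47). *Rnf139* missed the threshold in 3 of 23 fits with 1 mouse left out (mice 1, 8 and 11, adjusted p up to 0.059).

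Of 10 tested genes of lipoprotein uptake and transport of cholesterol within the cell, 1 rose as a DEG at day 7 and 0 at day 14. It was *Lipa*, which codes for the lysosomal acid lipase that frees cholesterol from its esters, at a median of 4.09 CPM at baseline and 8.35 at day 7, with a log2 fold change of 0.80 (SE 0.25, adjusted p 0.0289). Of 9 genes of efflux and the LXR system, *Apoe*, the apolipoprotein of cholesterol transport, rose as a DEG at day 7, from a median of 42.7 to 98.0 CPM, with a log2 fold change of 0.97 (SE 0.27, adjusted p 0.0160). *Nr1h3*, which codes for LXR alpha, and *Abcg1*, which codes for a sterol exporter, fell by the adjusted p alone, with log2 fold changes of -0.45 (adjusted p 0.0144) and -0.34 (adjusted p 0.0360), which total count scaling turned to 0.0038 and 0.11, again below the median of all genes. The call of *Lipa* was lost when mouse 1, 2, 6, 7, 8, 10, 14 or 15 was left out (adjusted p up to 0.0689), and that of *Abcg1* without mouse 1, 5, 8, 12, 13 or 14 (up to 0.081). The share covariate turned *Lipa* to -0.70 (adjusted p 0.463) and *Apoe* to -0.53 (adjusted p 0.681) at day 7. At day 14 the log2 fold changes were 0.58 for *Lipa* (adjusted p 0.335), 0.49 for *Apoe* (0.488), -0.37 for *Nr1h3* (0.183) and -0.40 for *Abcg1* (0.0864).

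*Soat1* was the gene of these lists that was a DEG at both times. It codes for an enzyme that turns free cholesterol into esters for storage in droplets. It ranged from 7.97 to 16.7 CPM at baseline (median 10.1), from 13.3 to 23.8 at day 7 (median 18.04) and from 14.5 to 21.9 at day 14 (median 16.4). Baseline and post-injury mice overlapped through 1 baseline mouse, mouse 1 at 16.7 CPM. The log2 fold change was 0.75 (SE 0.13, adjusted p 0.00021) at day 7 and 0.69 (SE 0.13, adjusted p 0.0053) at day 14. With the share of the 20 most abundant genes as a covariate *Soat1* did not pass, at 0.30 (adjusted p 0.638) and 0.47 (adjusted p 0.212). Of 5 tested genes of esterification and oxysterols it was the gene that passed, at either time.

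Among 13 tested genes of fatty acid synthesis, *Fads1*, which codes for a desaturase of polyunsaturated fatty acids, fell by the adjusted p alone at day 7 with a log2 fold change of -0.40 (SE 0.11, adjusted p 0.0117), an estimate that became 0.055 with total count scaling, again below the median of all genes. Among 10 genes of the isoprenoid branches, *Ggps1*, which codes for the synthase that lengthens farnesyl diphosphate, rose by 0.31 (SE 0.082, adjusted p 0.0090). Neither passed at day 14.

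Markers of other cell types changed as well at day 7, where *Lipa*, *Apoe* and *Soat1* rose as DEGs. Macrophages also express these genes. At day 7, 8 of 10 macrophage markers and 7 of 9 fibroblast markers rose as DEGs, and 5 of 10 acinar markers fell as DEGs. Islet markers rose in 4 of 7 and duct markers in 2 of 6, an endothelial marker fell in 1 of 6, and 0 of 6 tested lymphocyte and 0 of 8 tested adipocyte markers passed. The summed macrophage markers spanned 55.1 to 209 CPM at baseline, 130 to 310 CPM after 7 days and 89.9 to 177 CPM after 14, and the summed fibroblast markers 360 to 752, 666 to 1278 and 561 to 819. At day 14, where *Soat1* was again a DEG, 0 of 10 macrophage markers and 3 of 9 fibroblast markers were DEGs. No macrophage or fibroblast marker was at 0 in all mice. The part of these cells in the changes of *Lipa*, *Apoe*, *Soat1* or any other gene of the lists was not tested.

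**Figure D3:**
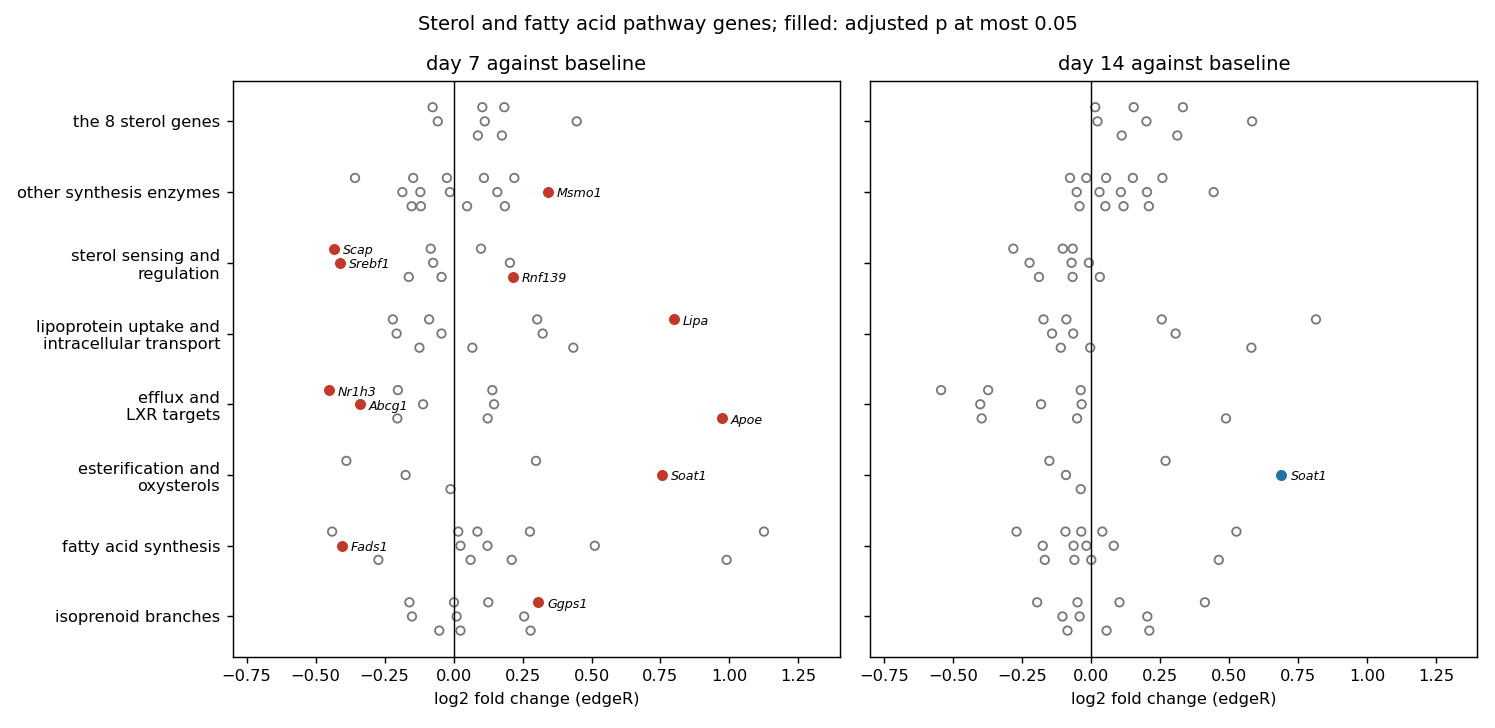
Log2 fold change (edgeR) of the 8 genes and of 70 further genes of sterol and fatty acid metabolism in 7 lists, at day 7 (left) and day 14 (right) against baseline. Each point is a gene; filled points are named and have an adjusted p of at most 0.05, which at day 14 is *Soat1* alone.

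Between the sexes, with the time point as a covariate, 0 of 8 genes were DEGs or passed the adjusted p alone in edgeR (0.230% and 0.574% of all genes), 0 of 8 passed an unadjusted p of 0.05 (9.0%), and DESeq2 gave 0 of 8. All 8 estimates were lower in males, with a median log2 fold change of -0.090 against -0.00031 for all genes; without mouse 10, 3 of 8 were higher in males and the median was -0.044, and the share covariate also gave 3 of 8. Of all 12195 genes tested, 6113 were lower in males. Of the 8 estimates with all mice, the largest was that of *Idi1* at -0.35 (SE 0.19, adjusted p 0.618). The difference between the sexes in the response to caerulein was tested as an interaction. By the adjusted p in edgeR, 0 of the 8 genes passed at day 7 or day 14 (0.00773% and 0% of 12933 genes). DESeq2 also gave 0 of 8 by the adjusted p at both times. In edgeR 1 of 8 had an unadjusted p under 0.05 at each time (5.44% and 3.67% of all genes).

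That gene was *Dhcr7*. Females had 5.46 ± 0.326 CPM at baseline (SD, n = 4), 6.91 ± 1.27 after 7 days (n = 4) and 8.32 ± 0.690 after 14 days (n = 3). Males had 6.41 ± 1.14 CPM (n = 4), 5.77 ± 1.14 (n = 4) and 6.85 ± 0.306 (n = 4). The 3 day 14 females, from 7.54 to 8.84 CPM, lay above all 4 baseline females, which reached 5.79, and the males overlapped. The share of all genes that separate in this way within a sex was not computed. With so few mice, and for a gene picked by its unadjusted p, the separation carries no test. The interaction, male minus female, was -0.50 (SE 0.22, unadjusted p 0.0350, adjusted p 0.914) at day 7 and -0.52 (SE 0.23, unadjusted p 0.0336, adjusted p 0.9999) at day 14 on the log2 scale in edgeR, so it did not hold after adjustment.

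The 8 genes were compared with each other from mouse to mouse. With each value taken as its difference from the mean of the same sex and time point, 27 of the 28 pairs of genes had a positive Pearson's r across the 23 mice, with a median of 0.38 and a range from -0.021 to 0.78. By a permutation test within sex and time point, adjusted over 28 pairs, 6 pairs passed with Pearson's r, and 1 with Spearman's rho. The values of a mouse share its library size and scaling. Without mouse 10, an alternative chosen after seeing the data, 26 of 28 were positive, the median was 0.39, and 2 pairs passed.

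The pair that passed in every form was *Idi1* and *Cyp51*, with r = 0.71 (permutation adjusted p 0.00084) and rho = 0.76 (permutation adjusted p 0.0045). Without the 2 mice farthest from the median of *Idi1* r was 0.63, and without mouse 10 it was 0.65 (permutation adjusted p 0.0154). Within time points, from values not centred by sex, r was 0.27 (baseline), 0.95 (day 7) and 0.85 (day 14). These r include any difference between the sexes and rest on 7 or 8 mice each. *Fdps* and *Insig1* had r = 0.70 (permutation adjusted p 0.0417), rho = 0.63 (permutation adjusted p 0.0783), and r = 0.72 without mouse 10 (permutation adjusted p 0.0382). Within time points, again not centred by sex, their r was 0.63, 0.73 and 0.82.

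The other 4 pairs did not pass without mouse 10. *Srebf2* was in 3 of them, with *Hmgcs1* (r = 0.70, permutation adjusted p 0.0419), *Cyp51* (r = 0.69, permutation adjusted p 0.0489) and *Idi1* (r = 0.65, permutation adjusted p 0.0419), and the fourth was *Fdps* with *Sqle* (r = 0.62, permutation adjusted p 0.0419). None of the 4 passed by rho, with permutation adjusted p-values from 0.0783 to 0.144. The largest r of all, 0.78 for *Hmgcs1* and *Cyp51*, did not pass (permutation adjusted p 0.0779) and fell to 0.27 without the 2 mice farthest from the median of *Hmgcs1*. *Insig1* and *Srebf2*, the pair of regulators, had r = -0.021.

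**Figure D4:**
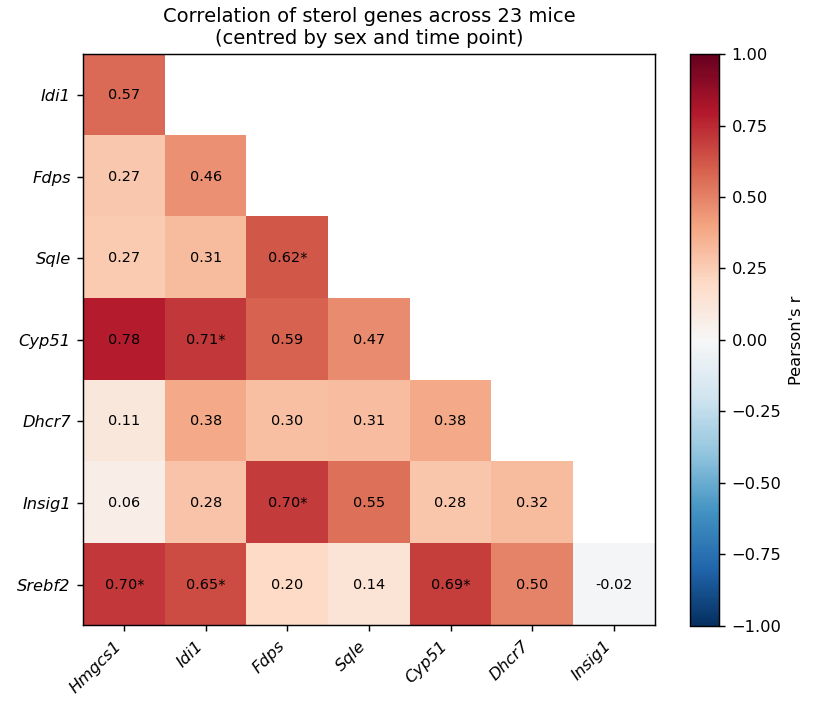
Pearson's r for the 28 pairs of the 8 genes across 23 mice, each value centred by sex and time point; the colour runs from -1 (blue) to 1 (red). Stars mark the 6 pairs with a permutation adjusted p of at most 0.05; 27 of the 28 are positive and the lowest is -0.021.

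Single mice stood high or low for several genes at once. Among the day 7 mice, mouse 10 was the highest for 6 of the 8 genes and mouse 12 the lowest for 5. Among the day 14 mice, mouse 17, a female, was the highest for 5 of 8, and among the baseline mice, mouse 5, a male, for 4 of 8. How often these mice were extreme among all genes was not counted, and mouse 10 also had the highest TMM factor. Mouse 10 and mouse 12 were both day 7 females, and *Cyp51* was at 17.8 CPM in the former and 6.02 in the latter, *Hmgcs1* at 30.7 and 16.2, *Fdps* at 16.2 and 8.30, and *Srebf2* at 18.3 and 9.03. *Insig1* differed less, at 106 and 82.6 CPM. No mouse was far enough from its group to pass Dixon's criterion in any of the 24 groups of a gene and time point.

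The 8 genes were set against 5 measures of each mouse, centred in the same way: the share of the 20 most abundant genes, the log2 total count, the mean of acinar markers, the mean of adipocyte markers and an index of clock genes. Of 40 relations, 0 passed the adjusted permutation test with r or with rho, and 12 had an unadjusted permutation p under 0.05. The strongest was that of *Srebf2* with the acinar markers, r = -0.70 (permutation adjusted p 0.0978) and rho = -0.68 (permutation adjusted p 0.0748), with r = -0.49 without the 2 mice farthest from the median of the markers. *Cyp51* had r = 0.65 and rho = 0.67 with the log2 total count (permutation adjusted p 0.0792 and 0.077), and r = 0.54 without the 2 farthest mice. The share, the log2 total count and the acinar mean also differed from baseline at day 7 and day 14. The mean log2 CPM of the acinar markers fell by 0.61 from baseline to day 7 (exact permutation test, adjusted p 0.0012). From baseline to day 14 it fell by 0.30 (adjusted p 0.0020). The adipocyte mean and the clock index did not differ between time points (exact permutation test, smallest adjusted p 0.710 and 0.306). The part of the measures in the levels of the 8 genes was not tested.

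Outside the 8 genes, the gene whose level was most like theirs across the 23 mice was *Scd2*, which codes for a fatty acid desaturase, with a mean r of 0.56 to the 8, rank 1 of 12184 genes compared, where the median of all genes was 0.012. The next 9 were *Gm21992* (0.56), *C330027C09Rik* (0.55), *Ccnb2*, a cyclin (0.54), *Anxa6*, an annexin (0.52), *Lig1*, a DNA ligase (0.52), *Hmgn1*, a nucleosome-binding protein (0.52), *Rhoc*, a small GTPase (0.51), *Mki67*, a marker of dividing cells (0.51), and *Hist2h2bb*, a histone gene (0.51). Among themselves the mean r of each of the 8 to the other 7 ran from 0.31 for *Insig1* to 0.56 for *Cyp51*. Without mouse 10, *Scd2* was at rank 3 with a mean r of 0.53 and *Mki67* at rank 58, and 49 of the 100 genes most like the 8 were among the 100 in both cases. These ranks describe the mice and carry no test.

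Of the 70 tested genes of the pathway lists, 7 were among those 100 and 3 without mouse 10, where the 100 were drawn from 12184 genes. Fatty acid synthesis had 5 of 13 (*Scd2*, *Acaca*, *Fasn*, *Elovl6* and *Acly*) and 2 of 13 without mouse 10. *Srebf1* was at rank 20, and at rank 17 without mouse 10. The other synthesis enzymes had 1 of 14, *Msmo1* at rank 43, and 0 without mouse 10, and their median mean r was 0.29. The median mean r was -0.27 for the 10 acinar markers, 0.071 for the 10 macrophage markers and 0.062 for the 9 fibroblast markers. Genes of cell division, such as *Ccnb2* and *Mki67* above, formed no list, and how many were among the 100 was not counted.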

How the data were processed

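The authors made stranded libraries from ribosome-depleted total RNA, examined and trimmed paired reads with FastQC, Trim Galore and cutadapt, aligned them to mm10 with STAR 2.5.2a, and counted uniquely mapped fragments per gene with featureCounts, per their methods and the submitters' processing notes. The deposited values are these counts, not normalized, 1 per symbol and mouse. The gene annotation and the strand setting of the counting are not given in the sources used here. Mouse 20 is not analysed here.

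In R 4.3.3, edgeR 4.0.16 (with limma 3.58.1) computed TMM factors and ran glmQLFit and glmQLFTest on genes kept by filterByExpr: 12195 genes for 23 mice with time point and sex, and 12933 genes for the 6 groups of sex and time point. P-values are two-sided and adjusted with the Benjamini-Hochberg method over all genes tested. SE and 95% intervals were derived from the F statistic and restate the test. CPM are TMM-scaled; log2 CPM used a prior count of 2. A floor of 3 counts was taken as detectable, which covers counting error only; every count of the 8 genes was above it. Counts per mouse of 5 to 45, as for *Idi1*, give low precision, and those of 555 to 1418, as for *Insig1*, high. Correlations used 100000 permutations within sex and time point. Single values of libraries were compared with exact permutation tests, adjusted over 15 tests. Positions are from GENCODE vM21 (GRCm38, the build of mm10) and promoters from RefSeq. The rest was done in Python 3.11.15 with pandas 2.3.3, matplotlib 3.10.9, scipy 1.17.1 and numpy 2.4.6. The script was tested on simulated data.

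Named genes are the 8, up to 4 genes per list and comparison with the smallest adjusted p of at most 0.05, and the 10 genes most like the 8. Genes named as examples beyond this rule (*Acaca*, *Fasn*, *Elovl6*, *Acly*, *Apoa1*) were chosen after their values were seen. The 8 genes and all lists were chosen with earlier results of these data known. Some genes are not reported here and were left out of the lists and of the 12184 genes compared for likeness. Alternatives were DESeq2 1.42.0, its size factors, total count scaling with and without the 20 most abundant genes, no filter or at least 10 counts in every mouse, a fit of the mice compared, no covariate, the share of the 20 most abundant genes as a covariate, a prior count of 0.5, centring by time point alone, and leaving out each mouse in turn.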

Additional observations from a re-analysis of the deposited data

How the results depend on the processing

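Values in this paragraph are log2 fold changes unless named otherwise, and the cause of a changed direction was not tested. The directions that turned include those of genes called at day 7. The share of the 20 most abundant genes does not overlap between any of the time points. With that share as a covariate, day 7 against baseline became -0.50 for *Hmgcs1*, -0.62 for *Idi1*, -0.23 for *Fdps* and -0.089 for *Sqle*. It became -0.92 for *Cyp51*, -0.15 for *Dhcr7*, 0.15 for *Insig1* and -0.13 for *Msmo1*. For *Lipa* it became -0.70 and for *Apoe* -0.53. Day 14 against baseline became -0.17 for *Hmgcs1*, -0.21 for *Cyp51*, -0.37 for *Srebf2*, -0.024 for *Msmo1*, 0.057 for *Rnf139*, -0.11 for *Lipa* and -0.20 for *Apoe*. Day 14 against day 7 became 0.33 for *Hmgcs1*, 0.10 for *Sqle* and -0.015 for *Insig1*, male against female 0.060 for *Hmgcs1*, 0.13 for *Cyp51* and 0.042 for *Srebf2*, and the interaction at day 14 -0.022 for *Srebf2*. With total count scaling, day 7 against baseline became 0.39 for *Insig1*, 0.40 for *Srebf2*, 0.014 for *Scap*, 0.045 for *Srebf1*, 0.0038 for *Nr1h3*, 0.11 for *Abcg1* and 0.055 for *Fads1*. Day 14 against baseline became 0.21 for *Rnf139* and 0.12 for *Fads1*. Day 14 against day 7 became -0.12 for *Idi1*, -0.15 for *Fdps*, -0.13 for *Cyp51*, -0.14 for *Insig1* and -0.18 for *Srebf2*, where the median of all genes was -0.25, and the interaction at day 7 became 0.0065 for *Srebf2*. Total count scaling that left out the 20 most abundant genes gave 0.0052 for *Insig1* and 0.016 for *Srebf2* at day 7 and 0.010 for *Rnf139* at day 14. A minimum of 10 counts in every mouse gave 0.00065 for *Rnf139* at day 14 and -0.0051 for the interaction of *Srebf2* at day 14. No filter gave 0.0012 for *Rnf139* at day 14 and 0.0051 for *Sqle* between day 14 and day 7, and a fit of the mice compared gave 0.0021 for the latter.

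The number of the 8 genes that were DEGs was 0 in every setting except total count scaling, with 3 at day 7 and 1 at day 14. The number of gene pairs that passed was 11 with centring by time point alone, 5 with DESeq2 size factors, 4 with a prior count of 0.5 and 2 without mouse 10, against 6, and the number of relations to measures of the mice was 5 with centring by time point alone, against 0.

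With each mouse left out in turn, estimates ranged from -0.085 to 0.10 for *Cyp51*, -0.065 to 0.047 for *Hmgcs1* and -0.082 to 0.037 for *Sqle* between males and females. Day 7 against baseline ranged from -0.14 to 0.041 for *Srebf2*. Day 14 against baseline ranged from -0.024 to 0.083 for *Insig1*, -0.040 to 0.020 for *Rnf139*, -0.0031 to 0.18 for *Sqle* and -0.037 to 0.12 for *Srebf2*. Day 14 against day 7 ranged from -0.061 to 0.085 for *Hmgcs1*, -0.015 to 0.25 for *Idi1* and -0.12 to 0.065 for *Sqle*. The interaction at day 7 ranged from -0.56 to 0.0040 for *Cyp51*, -0.41 to 0.036 for *Fdps*, -0.067 to 0.42 for *Idi1* and -0.17 to 0.20 for *Srebf2*, and at day 14 from -0.36 to 0.018 for *Fdps*, -0.11 to 0.13 for *Insig1* and -0.094 to 0.23 for *Srebf2*. No paired analysis was possible because the mice carry a number of their own and no number is shared between groups.

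Depth limits *Idi1* most, with as few as 5 counts in a mouse. With 7 or 8 mice in a group, the highest 95% limit of the 8 genes against baseline was 2.10-fold, for *Idi1* at day 14. The limit of *Srebf2* at that time was 1.21-fold. Changes within a gene's interval were not excluded by its test.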
